A study of Mus musculus with 29 samples.

Results

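Complexes III to V of the mitochondrial respiratory chain are built largely from subunits encoded in the nucleus, and the genes for these subunits were followed in RNA-Seq libraries of mouse blood stem and progenitor cells. Members were chosen by symbol alone, as every gene that begins with Uqcr, with Cox4 to Cox8 or with Atp5, plus Cyc1 and Cycs. The rule found 48 of the 30025 genes in the table. By their known roles 35 are core subunits, of which 9 belong to complex III, 10 to complex IV and 15 to complex V, with Cycs, the electron carrier cytochrome c, as the remaining one. A further 7 members are tissue-specific or alternative isoforms of complex IV (Cox4i2, Cox6a2, Cox6b2, Cox7a1, Cox7b2, Cox8b and Cox8c). Cox7a2l is a related protein that takes part in the assembly of supercomplexes. The rule also took in 3 genes that are not subunits (Cox4nb, Atp5s and Atp5sl) and 2 Atp5l pseudogenes (Atp5l-ps1 and Atp5l2), which were kept and counted. None of the 48 genes lies in the deleted interval.

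Total RNA came from cells sorted by their CD150 level (CD150hi HSC, CD150lo HSC or CD150neg MPP) from 10 C57BL/6J mice that were 12.42 to 13.85 weeks old. WT/WT mice and WT/DEL mice, called WT and 5A3+/del here, were compared, the latter carrying 1 germline copy of a deletion on chromosome 5 that is syntenic to a segment of human chromosome band 7q22, so that every cell of the body carries it. Each group held 5 libraries, each from a different mouse, except 5A3+/del CD150neg MPP with 4, which gives 29 libraries. The labels call the CD150neg cells HSC, whereas the sorting protocol calls them multipotent progenitors (MPP), and the latter name is used here.

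As background, complex III passes electrons from ubiquinol to cytochrome c and pumps protons, complex IV passes them from cytochrome c to oxygen, and complex V, the ATP synthase, uses the resulting proton gradient to make ATP. The catalytic centres of complexes III and IV include subunits encoded by mitochondrial DNA. That of complex III also includes the nuclear subunits cytochrome c1 (Cyc1) and the Rieske iron-sulfur protein (Uqcrfs1). The other nuclear subunits of these complexes mostly surround and regulate the centres. Several complex IV subunits have paralogs used in muscle, lung, testis or at low oxygen. Resting HSC are known to rely much on glycolysis and to keep mitochondrial respiration low.

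Promoters are shown for 4 members on which the results below turn. Atp5e was the only subunit that passed the test between genotypes, Atp5l was the most abundant complex V transcript of WT CD150hi HSC, and Cox6b2 and Cox8b are complex IV isoforms that were detected outside their usual tissues. Each sequence runs from 250 bases before to 50 bases after the transcription start of the RefSeq gene in GRCm38.p6, which is a newer build than that of the expression table, and is printed on the gene's strand. Capitals mark matches, on either strand, to the motifs of NRF1 (GCGCANGC), ETS factors (CCGGAAG), SP1 (GGGCGG) and YY1 (AAGATGGC), the first of which is a known regulator of respiratory genes. Atp5e lies at chr2:174464052-174464351 (minus strand) and holds 1 ETS and 2 SP1 matches. Atp5l lies at chr9:44920693-44920992 (minus strand) with 1 NRF1 and 2 ETS matches. Cox6b2 lies at chr7:4753045-4753344 (minus strand) and holds 1 SP1 match, while Cox8b at chr7:140900397-140900696 (minus strand) holds none of the motifs.
Atp5e: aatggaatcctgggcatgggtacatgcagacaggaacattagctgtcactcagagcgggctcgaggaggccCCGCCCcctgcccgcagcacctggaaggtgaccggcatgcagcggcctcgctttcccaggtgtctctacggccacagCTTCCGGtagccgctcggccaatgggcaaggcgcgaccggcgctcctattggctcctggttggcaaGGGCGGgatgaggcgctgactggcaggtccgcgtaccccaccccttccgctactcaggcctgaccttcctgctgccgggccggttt
Atp5l: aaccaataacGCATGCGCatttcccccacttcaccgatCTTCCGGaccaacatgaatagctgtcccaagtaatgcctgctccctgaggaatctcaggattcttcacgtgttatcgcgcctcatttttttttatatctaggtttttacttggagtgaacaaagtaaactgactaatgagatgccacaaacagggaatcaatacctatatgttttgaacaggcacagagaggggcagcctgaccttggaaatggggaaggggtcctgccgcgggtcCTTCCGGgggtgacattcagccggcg
Cox6b2: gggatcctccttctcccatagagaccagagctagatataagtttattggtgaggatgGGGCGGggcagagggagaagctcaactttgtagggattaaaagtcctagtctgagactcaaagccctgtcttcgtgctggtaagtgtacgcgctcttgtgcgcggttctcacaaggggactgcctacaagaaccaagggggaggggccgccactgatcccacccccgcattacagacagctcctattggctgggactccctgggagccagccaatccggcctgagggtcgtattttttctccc
Cox8b: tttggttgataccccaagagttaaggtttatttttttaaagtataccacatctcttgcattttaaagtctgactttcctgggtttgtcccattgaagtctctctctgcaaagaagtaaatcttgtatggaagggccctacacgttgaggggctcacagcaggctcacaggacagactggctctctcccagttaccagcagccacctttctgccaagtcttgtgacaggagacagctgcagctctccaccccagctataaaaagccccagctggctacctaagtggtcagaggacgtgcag

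Promoter windows were found for 32 of the 48 members, 35 windows in all. NRF1 matches occurred in 34.3% of them, or 40% of the 30 windows of core subunits, whereas 9.95% of all 32851 windows in the table held one. ETS matches occurred in 28.6% of member windows and 8.86% of all windows. SP1 matches (31.4% against 35.7%) and YY1 matches (5.71% against 2.75%) were closer to the whole table, and the NRF1 motif and its shorter core GCATGC, found in 28.6% of member windows and 7.93% of all, can overlap in the same bases. The 4 windows of tissue-specific isoforms held SP1 matches in 2 and no NRF1, ETS or YY1 match. Their median number of CpG dinucleotides was 8.5, against 19 in core subunit windows and 7 in all windows. These are matches of letters, not measured binding.

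Values are FPKM (fragments relative to a gene's exon length and to the depth of the library) as deposited, or normalized FPKM after quantile normalization over all libraries. Libraries held 21229490 to 38797569 fragments (median 26967107), and 45 of the 48 members passed a filter of 1 FPKM in at least 4 libraries. Among these, Cox8b passed only through 5A3+/del CD150lo HSC and CD150neg MPP libraries, in which it was high, so that its tests are not used and it is given as a description. Slamf1, which encodes CD150, was at 12.5 to 15.4 FPKM in WT CD150hi HSC, 0.749 to 2.64 in WT CD150lo HSC and 0.00951 to 0.296 in WT CD150neg MPP, following the gates. The receptor tyrosine kinase gene Flt3, a mark of progenitors, ran the other way, from 1.66 to 3.71 FPKM in WT CD150hi HSC to 41.3 to 62.4 in WT CD150neg MPP. Summed T cell markers reached at most 1.09 FPKM and B cell markers 3.39, whereas myeloid markers summed to 1.32 to 49.9 FPKM in WT CD150hi HSC and to 2.08 to 8.16 in 5A3+/del CD150hi HSC. Erythroid markers summed to 3.5 to 26.3 FPKM and megakaryocyte markers to 11.4 to 41.4 over all libraries. The 8 HSC and MPP markers summed to 603 to 695 FPKM in WT CD150hi HSC and 674 to 883 in 5A3+/del. In CD150lo HSC they summed to 528 to 784 and 719 to 792, so the ranges overlapped in both. All 8 had the higher mean in 5A3+/del CD150hi HSC (median log2 difference 0.29), as did 7 among CD150lo HSC (0.252) and 6 among MPP (0.107). In CD150hi HSC 2 markers lay entirely above WT, as did 1.1% of all genes. No marker passed between genotypes after adjustment in limma in any population. The part of these markers in the genotype differences was not tested. The WT mouse numbered 3 stands apart in all its libraries, with Xist at 234 to 319 FPKM and 4 Y-linked genes summing to at most 0.124, while the other mice had Xist at most 0.47 and Y-linked genes from 51.4 to 71.4. Sex is not in the labels. Values without this mouse, and without 5A3+/del mouse 1, are given where they bear on a result. The CD150hi HSC library of the latter stands apart in several members, and each such fit leaves out all libraries of the mouse. In sorted bulk RNA, fewer cells of a type and less RNA per cell cannot be told apart.

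Levels spanned a wide range within each complex. Averaged over the 29 libraries, Cox4i1 (171 FPKM), the nuclear subunit that adjusts complex IV to the ATP level, Cox7a2l (148 FPKM) and Cox8a (139 FPKM) were highest. The lowest of those past the filter were the isoforms Cox8b (0.622 FPKM), Cox4i2 (1.99 FPKM) and Cox7a1 (4.14 FPKM). In WT CD150hi HSC, core complex III subunits ran from 15.4 normalized FPKM for Uqcrb to 99.3 for Uqcr10, a 6.46-fold span. Complex IV ran from 19.0 for Cox5a to 208 for Cox4i1 (10.9-fold), and complex V from 8.89 for Atp5g1 to 127 for Atp5l (14.3-fold). Atp5b, the catalytic beta subunit of the ATP synthase, was the highest of complex V in WT CD150neg MPP (135) and in the 3 5A3+/del groups. FPKM are per length, but 11 of the 47 members with a cDNA in the annotation have at least 1 near-identical copy elsewhere in the genome, with 10 for Atp5l, 3 for Atp5g2 and 2 for Cox5b, so levels of these genes are uncertain. Atp5e, Uqcrq, Cox4i1, Cox4i2, Cox7b, Atp5j, Atp5b, Cox6b2 and Cox8b have none.

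The median SD within groups was 0.221 on the log2 scale over the members and 0.327 over the 15409 genes tested, which were not matched to the members for level. It was lowest for Atp5j (0.127), Cox7b (0.13) and Cox7a2l (0.132) and highest for Cox7a1 (0.802) and Cox4i2 (0.59), both of low level.

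**Figure D1:**
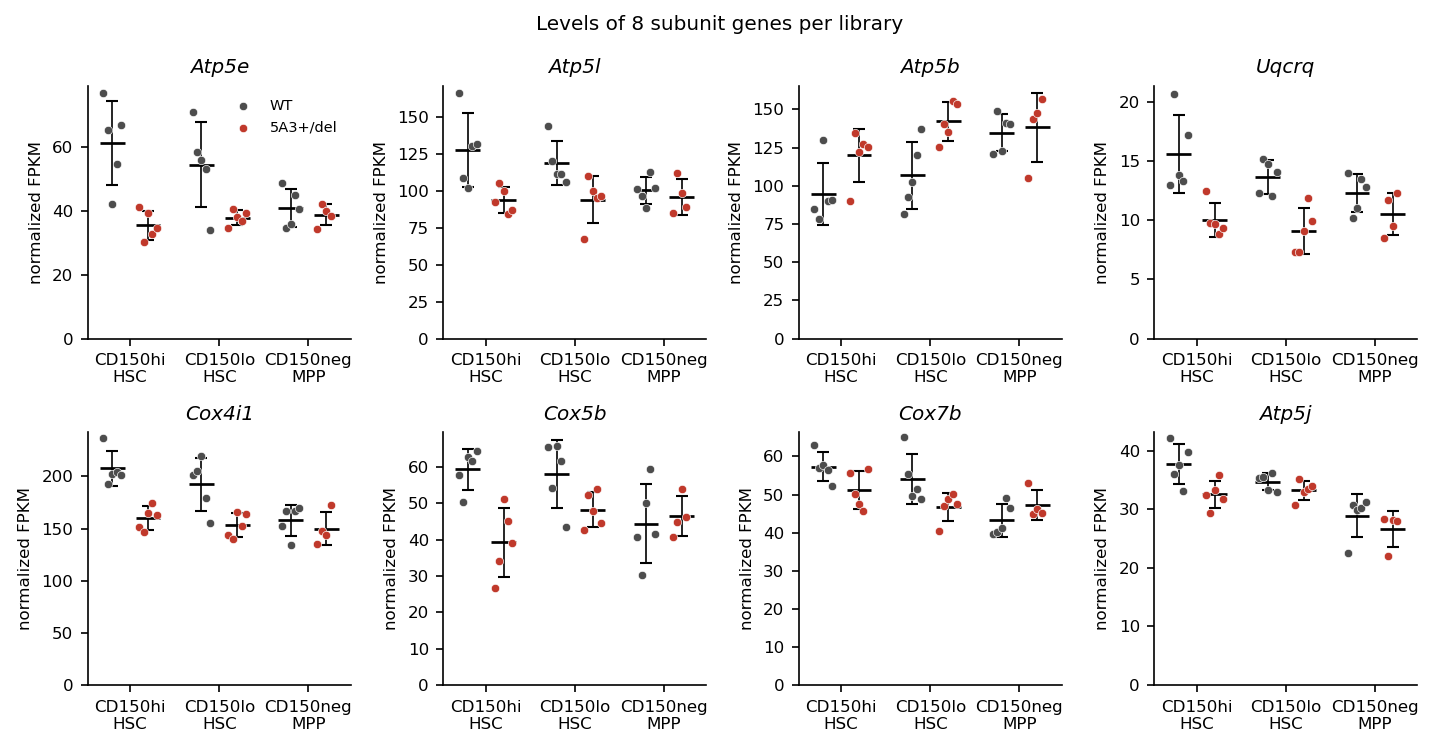
Normalized FPKM (vertical axis) of 8 core subunits in each of the 29 libraries, by population and genotype, with the group mean as a line and bars of 1 SD. Atp5e and Uqcrq show WT CD150hi HSC points above every 5A3+/del CD150hi HSC point, and for Atp5b the 5A3+/del mean is the higher one in each population.

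Between genotypes, the question was whether loss of 1 copy of the interval goes with another level of these subunits. In CD150hi HSC, 33 of 45 members had a lower mean in 5A3+/del than in WT, with a median log2 difference of -0.168, against 0.004 over all 15409 genes. A single member passed the test: Atp5e fell, by 0.75 on the log2 scale (limma with Benjamini-Hochberg adjustment over all genes). Over all genes 0.156% passed in CD150hi HSC. At an unadjusted p under 0.05 there were 12 members, 11 of them lower, beside 13.1% of all genes. In CD150lo HSC 36 of 45 members had the lower mean in 5A3+/del (median -0.2, all genes 0.011). None passed after adjustment in limma, with 0.0324% of all genes called. Unadjusted, 13 members were under 0.05, 11 of them lower, beside 6.87% of all genes. Cox8b, whose tests are not used, is 1 of these 13. In CD150neg MPP 23 of 45 were lower (median -0.003, all genes -0.001). None passed, while 0.0454% of all genes did. The 2 members with an unadjusted p under 0.05 were Atp5h and Cox8b, whose test is not used, beside 4.27% of all genes.

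Without the WT mouse 3 the medians were -0.206 in both HSC populations. Without 5A3+/del mouse 1, left out in all its populations, the median in CD150hi HSC was -0.158. No member passed in that fit, with Atp5e at an adjusted p of 0.065 in limma. Short genes had negative medians too, and the 2978 genes with under 1000 bases of exon had a median of -0.08 in CD150hi HSC and -0.075 in CD150lo HSC. After correction for exon length the member medians were -0.136 and -0.153, and no member passed.

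Atp5e encodes the epsilon subunit in the central stalk of the ATP synthase (ENSMUSG00000016252, mm9 chr2:174286573-174289606, minus strand), and its promoter is the first of those shown above. In WT CD150hi HSC it was at 76.7, 65.2, 42, 54.8 and 67 normalized FPKM, and in 5A3+/del CD150hi HSC at 41.1, 30.1, 39.1, 32.7 and 34.5. Every 5A3+/del library lay below every WT library, the nearest pair being 41.1 and 42. The log2 difference was -0.748 (SE 0.16, n = 5 and 5) with an adjusted p of 0.048 in limma, and the exact permutation test over mice gave 0.00794, the smallest p it can give with 5 against 5. Leaving out 1 replicate number of a genotype at a time moved the adjusted p from 0.0326 to 0.128, and the call held only without WT replicate 3 or 5 and was lost without any of the other 8. The adjusted p was 0.39 with only the 2 groups in the fit and 0.0512 with the length correction. In CD150lo HSC Atp5e was at 70.8, 58.2, 55.8, 53 and 33.8 in WT and at 34.6, 40.6, 37.9, 36.7 and 39.2 in 5A3+/del. Here 4 of the WT values lay above all 5A3+/del values and 1 below them (log2 difference -0.476, adjusted p = 0.379 in limma). In CD150neg MPP the WT values of 48.5, 34.7, 35.8, 44.8 and 40.6 and the 5A3+/del values of 34.4, 42.2, 40 and 38.2 overlapped (-0.07, exact permutation test p = 0.54).

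Among complex III subunits, Uqcrq had the largest statistic in the HSC populations. It encodes the small ubiquinone-binding subunit (ENSMUSG00000044894, mm9 chr11:53241424-53244333, minus strand). WT CD150hi HSC held 12.9, 20.6, 13.8, 13.3 and 17.2 normalized FPKM and 5A3+/del CD150hi HSC 12.4, 9.72, 9.68, 8.82 and 9.29. In CD150lo HSC the values were 12.3, 15.1, 14.7, 12 and 14 in WT and 7.34, 7.26, 9.05, 11.9 and 9.92 in 5A3+/del. The genotypes did not overlap in either HSC population, by a narrow margin in CD150lo HSC, and the exact permutation test gave 0.00794 in each. The log2 differences were -0.581 (SE 0.144) and -0.552 (SE 0.144), with adjusted p of 0.0776 and 0.186 in limma, so that neither passed. In CD150neg MPP Uqcrq was at 10.2 to 14 in WT and 8.51 to 12.3 in 5A3+/del (-0.212, exact permutation test p = 0.175). As a whole, core complex III had a median difference of -0.019 (5 of 9 lower) among CD150hi HSC, of -0.272 (8 of 9 lower) among CD150lo HSC and of -0.046 among CD150neg MPP. Cyc1, the cytochrome c1 of the complex, differed by 0.12, 0.04 and 0.001 in these populations, and Cycs by -0.011, -0.095 and 0.058.

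In complex IV, Cox4i1 and Cox5b had the largest statistics in CD150hi HSC. Cox4i1 (ENSMUSG00000031818, mm9 chr8:123192190-123198109, plus strand) was at 237, 193, 202, 204 and 202 normalized FPKM in WT CD150hi HSC and at 151, 147, 165, 175 and 163 in 5A3+/del, again without overlap. The log2 difference was -0.373 (SE 0.105, adjusted p = 0.111 in limma, exact permutation test p = 0.00794). The CD150lo HSC difference was -0.319 (adjusted p = 0.359 in limma, exact permutation test p = 0.0238) and that of CD150neg MPP -0.075. Cox5b, a zinc-binding peripheral subunit (ENSMUSG00000061518, mm9 chr1:36748332-36750230, plus strand), was at 57.7, 50.4, 62.7, 61.6 and 64.5 in WT CD150hi HSC and at 26.8, 34.2, 51.3, 45 and 39.1 in 5A3+/del, of which only 51.3 reached the WT range (-0.613, SE 0.164, adjusted p = 0.101 in limma, exact permutation test p = 0.0159). It differed by -0.253 in CD150lo HSC and by 0.09 in CD150neg MPP. Over the 10 core subunits the median was -0.157 among CD150hi HSC (6 lower), -0.227 among CD150lo HSC (7 lower) and -0.013 among MPP (6 lower). Cox5a, Cox6c, Cox7c and Cox8a had the higher mean in 5A3+/del CD150hi HSC, at 113%, 118%, 105% and 114% of WT. For Cox8a this came from 1 library, the 5A3+/del library 1 at 240 normalized FPKM. The other 5A3+/del libraries of this population were at 123 to 134 and WT at 125.6 to 138. The higher mean of Cox6c also leaned on a single library, the 5A3+/del library 4 at 47.7 normalized FPKM, above the WT maximum of 35.9. Its lowest value was 13.4 in 5A3+/del and 15.9 in WT, and its median was lower in 5A3+/del than in WT. Cox6c also has a near-identical copy elsewhere in the genome.

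In complex V, 12 of 15 core subunits had the lower mean in 5A3+/del in each HSC population, with medians of -0.217 and -0.237, against 0.025 among CD150neg MPP. Atp5l, subunit g of the membrane part, was at 166, 108, 102, 130 and 131 normalized FPKM in WT CD150hi HSC and at 92.1, 105, 99.7, 84.4 and 86.7 in 5A3+/del. A single 5A3+/del value lay inside the WT range, and the log2 difference of -0.425 (SE 0.136) had an adjusted p of 0.169 in limma. Atp5g2, one of the genes for the proton-carrying c subunit, did not overlap in CD150hi HSC, with 110, 121, 114, 124 and 139 in WT and 100, 104, 88.6, 107 and 82.8 in 5A3+/del (-0.33, SE 0.114, adjusted p = 0.202 in limma). Both Atp5l and Atp5g2 have near-identical copies in the genome. The beta subunit Atp5b had the higher mean in 5A3+/del. In CD150lo HSC it was at 81.5, 92.8, 103, 120 and 137 in WT and at 125.6, 140, 136, 156 and 154 in 5A3+/del, with 1 WT value inside the 5A3+/del range (0.43, SE 0.15, adjusted p = 0.429 in limma, exact permutation test p = 0.0238). In CD150hi HSC it differed by 0.35 with overlap (exact permutation test p = 0.103), and by 0.03 in CD150neg MPP. Apart from Cox8b, whose tests are not used, the largest statistics in CD150neg MPP were those of Cox7a1, Uqcrq, Atp5h (-0.301) and Cox7a2l (-0.153), none of which passed.

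Complete separation of the genotypes was counted for every gene. In CD150hi HSC 4 members (Atp5e, Atp5g2, Cox4i1 and Uqcrq) had every 5A3+/del library below every WT library, as did 1.48% of all genes, and no member had them all above. In CD150lo HSC these were Atp5f1 and Uqcrq (0.876% of all genes), with Atp5d above, and in CD150neg MPP no member (0.792% of all genes). Atp5d, the delta subunit, is named here after its values were seen, and it differed by 0.22 (adjusted p = 0.846 in limma). The share of all genes entirely above was 1.1%, 0.753% and 0.72% in these populations.

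**Figure D2:**
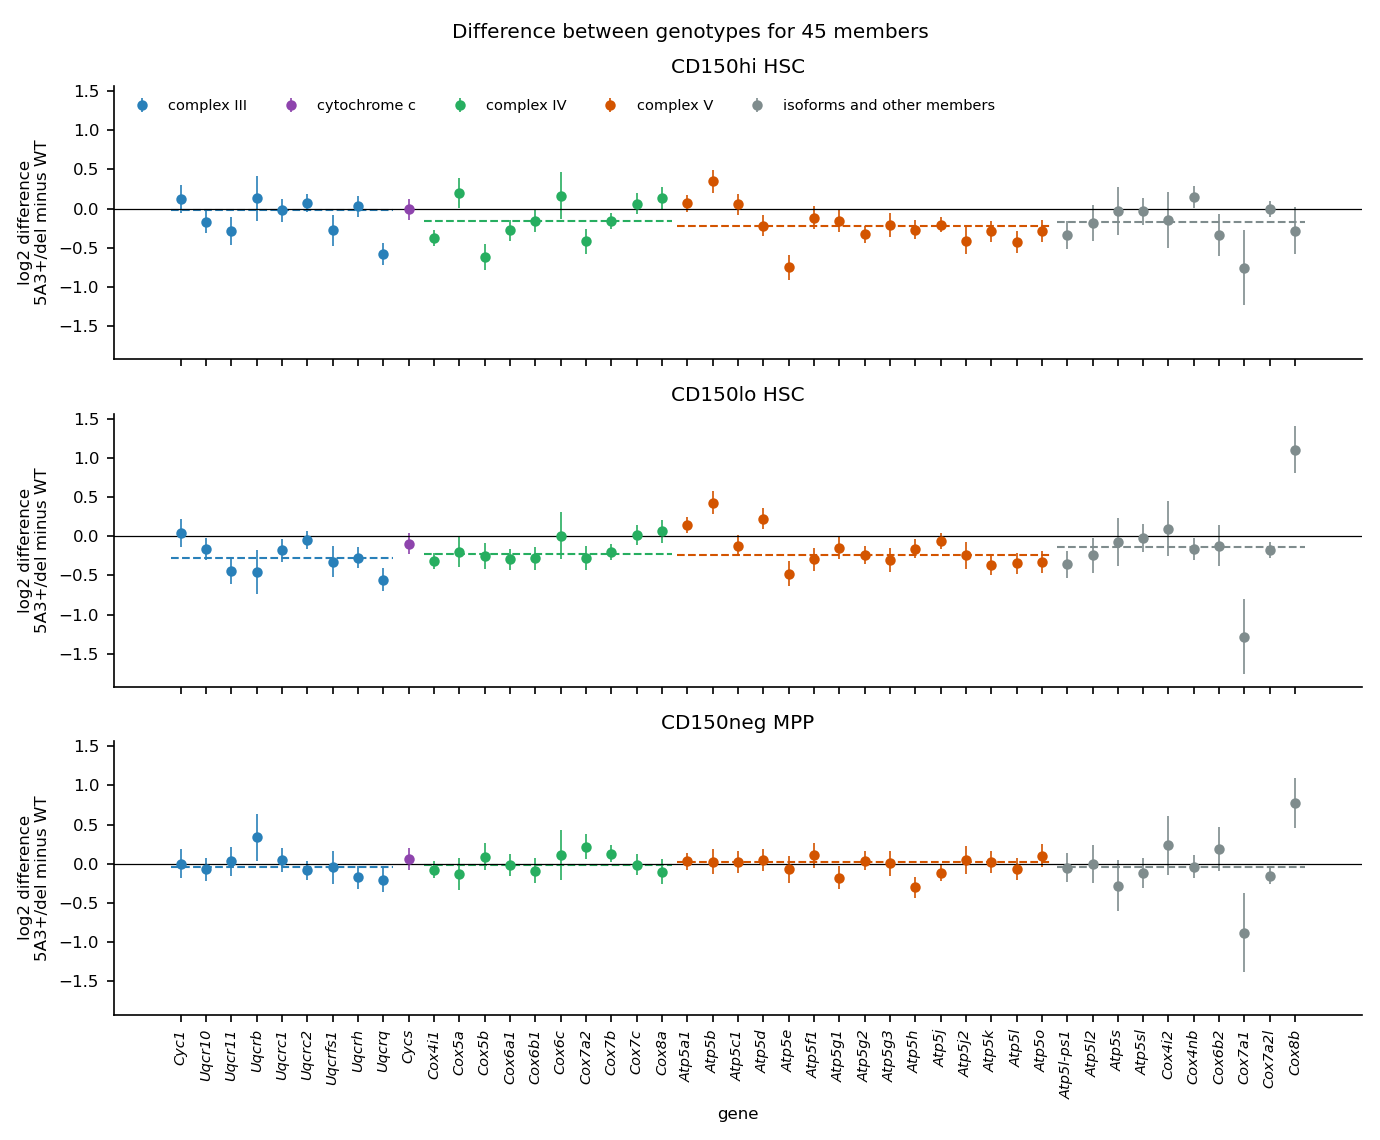
Log2 difference of 5A3+/del minus WT (vertical axis, bars of 1 SE from limma) for the 45 members past the filter in each population, grouped by complex, with dashed lines at the median of each complex. Most members sit below 0 in both HSC populations, with medians over all members of -0.168 and -0.2, and around 0 in CD150neg MPP.

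Other parts of the respiratory chain were read from lists by symbol. The 36 nuclear complex I subunits had -0.173 in CD150hi HSC (30 lower) and -0.222 in CD150lo HSC (35 lower), with -0.066 in CD150neg MPP. The 4 complex II subunits had -0.133, -0.141 and -0.012. The 6 transcripts for subunits of complexes III to V that mitochondrial DNA encodes had 0.08, 0.059 and 0.01. Mitochondrial rRNA made up 20.7% to 31.4% of fragments per library. Assembly factors were at 0.015, 0.004 and 0.043 for complex III (4 of 7 tested) and at -0.129, 0.018 and -0.013 for complex IV (15 of 21 tested), and the 6 genes for assembly and accessory proteins of complex V at -0.027, -0.271 and -0.008. None of the genes in these lists passed between genotypes. Genes for cytosolic ribosomal proteins, which are also short and abundant, had -0.183 (68 of 78 lower, 1 past the test), -0.143 (66 lower) and -0.032 (52 lower), so that a median of this size was not limited to respiratory genes.

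Across populations in WT, the step from CD150hi to CD150lo HSC had a median of 0.002 over the members (23 higher and 22 lower), which ranged from -0.052 to 0.04 with 1 replicate left out, and 1 member, Cox4i2, passed with 3.53% of all genes called. From CD150lo HSC to CD150neg MPP 37 of 45 were lower, with a median of -0.152. None passed in limma with 0.188% of all genes called, and 13 had an unadjusted p under 0.05, beside 8.75% of all genes. From CD150hi HSC to CD150neg MPP 30 of 45 were lower (median -0.139), and 6 passed beside 10.0% of all genes. Medians for core complexes III, IV and V over this distance were -0.05, -0.085 and -0.277. Without the WT mouse 3 the median over all members was -0.161. In that fit 6 members passed, beside 1302 of 15255 genes, and Cox4i1 was no longer among them (adjusted p = 0.0603 in limma). Without WT replicate 1, 2 members passed, beside 1036 of 15258 genes. Ribosomal protein genes had a median of -0.213 with 70 of 78 lower and 22 past the test, while complex I had a median of -0.164 with 26 of 36 lower and Ndufb11, an accessory subunit of its membrane arm, past the test (-0.468, SE 0.132, adjusted p = 0.0208 in limma).

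The 6 members that passed in WT between CD150hi HSC and CD150neg MPP were 5 that fell and 1 that rose. Cox4i1 fell from the values given above to 152, 167, 134, 166 and 170 normalized FPKM (-0.395, SE 0.105, adjusted p = 0.0138 in limma). Cox7b, a small complex IV subunit, went from 62.9, 57.1, 57.9, 56.4 and 52.1 to 39.5, 40.1, 41.1, 49.1 and 46.4 (-0.4, SE 0.101, adjusted p = 0.00972 in limma). Atp5j, coupling factor 6 of the ATP synthase stalk, went from 42.1, 36, 37.5, 33.1 and 39.7 to 22.5, 30.7, 29.8, 30.2 and 31.3 (-0.377, SE 0.1, adjusted p = 0.0139 in limma), and shares exonic bases with Gabpa on the opposite strand. In these 3 genes, named for passing the test, the populations did not overlap, which is a description of the same values and no further support. Atp5e fell by 0.55 (SE 0.16, adjusted p = 0.0256 in limma), with 42 in WT mouse 3 inside the CD150neg MPP range. With WT replicate 2 left out, its adjusted p was 0.147. Atp5b rose, from 84.6, 77.9, 130, 90.2 and 90.7 to 121, 149, 123, 141 and 140 (0.52, SE 0.15, adjusted p = 0.0235 in limma), the value of 130 in WT mouse 3 lying inside the upper group, and its adjusted p was 0.149 without replicate 2. The sixth, Cox4i2, is described with the isoforms. The accessory ATP synthase protein gene 2010107E04Rik also fell (-0.435, SE 0.119, adjusted p = 0.0178 in limma).

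In 5A3+/del mice the same steps had medians near 0, whose signs turned with single replicates left out. They were -0.012 from CD150hi to CD150lo HSC, where the single member called was Cox8b, whose test is not used, with 3.18% of all genes called. They were 0.026 from CD150lo HSC to CD150neg MPP (18 of 45 lower), where no member passed in limma, with 0.0389% of all genes called, and 1 had an unadjusted p under 0.05, beside 4.95% of all genes. From CD150hi HSC to CD150neg MPP the median was 0.016 (20 of 45 lower) and Cox4i2 passed, with 6.16% of all genes called. Cycs was at 9.56, 8.36, 6.29 and 10.7 normalized FPKM in 5A3+/del CD150neg MPP, and in CD150hi HSC at 4.73, 6.22, 6.31, 6.94 and 6.16. The log2 difference was 0.45 (SE 0.143, adjusted p = 0.0641 in limma), and with the mouse as a block the adjusted p was 0.0353. In WT it was 0.38 (adjusted p = 0.0768 in limma). Cox10, an enzyme in the making of the heme A of complex IV, rose in 5A3+/del over this distance (0.56, SE 0.159, adjusted p = 0.0296 in limma).

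Mean log2 levels of the complexes show where the genotypes meet. For complex V the WT means were 5.603 ± 0.125 (SD, n = 5) for CD150hi HSC, 5.574 ± 0.098 for CD150lo HSC and 5.408 ± 0.099 for CD150neg MPP. In 5A3+/del it had 5.39 ± 0.092, 5.421 ± 0.064 and 5.39 ± 0.079 (n = 4). Thus 5A3+/del CD150hi HSC were within 1 SD of CD150neg MPP of either genotype. Complex III was at 5.036 ± 0.09, 5.165 ± 0.06 and 4.971 ± 0.095 in WT, highest in CD150lo HSC, and at 4.926 ± 0.117, 4.899 ± 0.087 and 4.953 ± 0.08 in 5A3+/del. Complex IV was at 6.035 ± 0.149, 6.085 ± 0.097 and 5.918 ± 0.11 in WT and at 5.892 ± 0.115, 5.911 ± 0.093 and 5.932 ± 0.078 in 5A3+/del. By single genes, 17 of 45 members (37.8%) ran downward in mean from CD150hi over CD150lo to CD150neg cells in WT and 3 (6.67%) upward, where 22.4% and 23.9% of all genes did so. In 5A3+/del 7 (15.6%) ran downward and 10 (22.2%) upward, where 22.7% and 22.2% of all genes did.

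**Figure D3:**
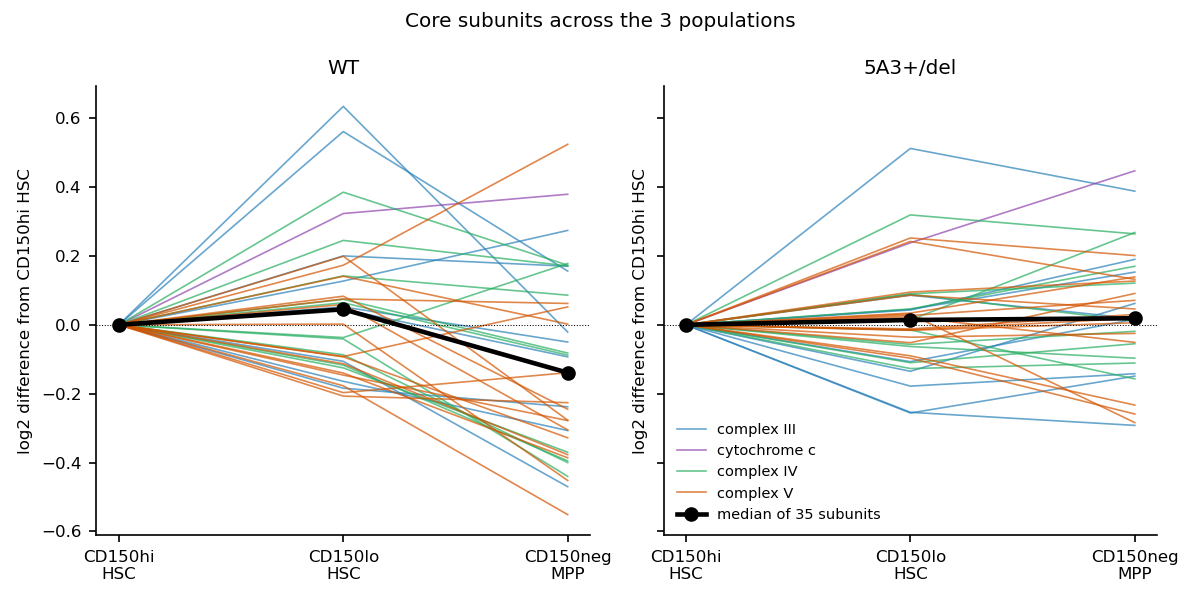
Log2 difference from the CD150hi HSC mean of the same genotype (vertical axis) for the 35 core subunits, each a thin line across the populations, in WT and in 5A3+/del, with the median in black. The WT lines drop on average at CD150neg MPP, and the 5A3+/del median stays near 0.

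Whether the genotype difference itself depended on population was tested as an interaction. No member and no gene passed in any of the 3 pairs of populations (0 of 15409 genes each by limma). Unadjusted, 2, 3 and 5 members were under 0.05, beside 614, 771 and 1227 of all genes. Cox8b, whose tests are not used, was among the members tested in these counts. The median interaction was 0.042 for CD150hi minus CD150lo HSC, -0.194 for CD150lo HSC minus CD150neg MPP (32 of 45 lower) and -0.18 for CD150hi HSC minus CD150neg MPP (28 lower). For Atp5e the last was -0.678 (SE 0.233, adjusted p = 0.426 in limma) and for Cox5b -0.704 (SE 0.239, adjusted p = 0.426 in limma). So the absence of calls in CD150neg MPP, which also has 1 library fewer, is not shown to differ from the HSC populations.

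Among the isoforms, Cox4i2, the complex IV subunit 4 form of lung and low oxygen, was highest in CD150hi HSC (ENSMUSG00000009876, mm9 chr2:152579909-152590773, plus strand). It was at 5.51, 8.97, 2.49, 2.98 and 2.13 normalized FPKM in WT CD150hi HSC. WT CD150lo HSC held 0.156, 1.36, 0.585, 0.522 and 2.55, and WT CD150neg MPP 0.224, 0.792, 0.451, 0.553 and 0.248. All CD150hi HSC values lay above all CD150neg MPP values, a description of a gene named for passing the test. On the log2(FPKM + 1) scale the differences from CD150hi HSC were -1.383 (SE 0.355, adjusted p = 0.0241 in limma) and -1.767 (SE 0.355, adjusted p = 0.00125 in limma). With the mouse as a block the first had an adjusted p of 0.0528, and without WT replicate 1, 2, 3 or 4 it was 0.177, 0.111, 0.0668 or 0.0884. In 5A3+/del the values were 3.6, 1.11, 4.21, 3.91 and 5.83 in CD150hi HSC and 0.0481, 1.89, 1.11 and 0.29 in CD150neg MPP, with an overlap of 1 library (-1.385, SE 0.377, adjusted p = 0.023 in limma, 0.069 with the mouse as a block). Of the fits that leave out a 5A3+/del replicate number, it passed only in that without replicate 2, with an adjusted p of 0.167 without replicate 1. By summed fragments CD150hi HSC held 507 and CD150neg MPP 58 in WT, a rate ratio of 8.96 (95% interval 6.82 to 12.0), and the ratio was 4.39 (3.42 to 5.69) in 5A3+/del. These intervals cover counting error only, since amplified fragments are not independent molecules. Cox4i2 made up 2.03% ± 1.25 (SD, n = 5) of Cox4i1 plus Cox4i2 in WT CD150hi HSC and 2.3% ± 1.08 in 5A3+/del, and 0.303% ± 0.169 and 0.573% ± 0.547 in CD150neg MPP.

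Cox6b2, known as the testis form of subunit 6b, was a sizeable share in every library, from 5.34% to 33.0% of Cox6b1 plus Cox6b2. In WT CD150hi HSC it was at 18.4, 20.2, 20.8, 14.2 and 17.4 normalized FPKM and in WT CD150lo HSC at 5.51, 14.1, 13.8, 10.5 and 10.9, without overlap (-0.73, SE 0.264, adjusted p = 0.16 in limma). Over this step 2.22% of the members and 2.11% of all genes had every WT CD150lo HSC library below every WT CD150hi HSC library. In WT its share was 18.4% ± 3.71 for CD150hi HSC, 11.0% ± 3.35 for CD150lo HSC and 12.1% ± 2.76 for CD150neg MPP (SD, n = 5), and 17.7% ± 9.33, 12.3% ± 3.07 and 14.2% ± 4.68 in 5A3+/del. The genotypes overlapped in each population.

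Cox7a1, the muscle form of subunit 7a, made up 8.57% ± 4.81, 10.0% ± 5.37 and 8.44% ± 3.0 of its family in the WT populations and 6.32% ± 4.49, 5.8% ± 8.09 and 3.42% ± 2.13 in 5A3+/del. Its genotype differences of -0.752, -1.284 and -0.877 did not pass after adjustment, and the exact permutation tests gave 0.119, 0.103 and 0.0476. In 5A3+/del CD150lo HSC 4 libraries were at 0.321 to 1.69 normalized FPKM and 1 was at 12.0, above every WT value.

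Cox8b, the heart and muscle form of subunit 8, was at the limit of detection in most libraries and is best given in fragments. WT CD150hi HSC held 0, 0, 6, 2 and 10 fragments, WT CD150lo HSC 4, 2, 0, 3 and 1, and WT CD150neg MPP 0, 11, 1, 1 and 1. The 5A3+/del libraries held 0, 0, 2, 0 and 0 fragments (CD150hi HSC), 34, 0, 13, 17 and 17 (CD150lo HSC) and 8, 24, 14 and 2 (CD150neg MPP). Of the 5A3+/del CD150lo HSC libraries 4 were thus above every WT library of that population, and 1 was at 0. The 5A3+/del CD150lo HSC libraries held 81 fragments in sum, 5A3+/del CD150hi HSC 2 and WT CD150lo HSC 10. Per depth, the first sum was 45.5 times the second and 9.24 times the third. These ratios describe the libraries, since the filter admitted Cox8b through this group. Cox8b made up 1.41% ± 1.1 of the subunit 8 family in 5A3+/del CD150lo HSC, against 0.128% in WT.

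The other isoforms were hardly detected. Cox6a2, the muscle form of subunit 6a, had at most 5 fragments in any library. Cox7b2 had 25 fragments in 1 WT CD150lo HSC library, 4 in 1 5A3+/del CD150neg MPP library and 1 in 1 5A3+/del CD150hi HSC library. Cox8c had 6 and 1 fragments in 2 5A3+/del CD150lo HSC libraries. Of the 3 genes for the c subunit of the ATP synthase, which give the same mature protein, Atp5g2 made up 66.6% ± 3.81 (SD over 29 libraries), Atp5g3 27.8% ± 3.51 and Atp5g1 5.57% ± 1.08.

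**Figure D4:**
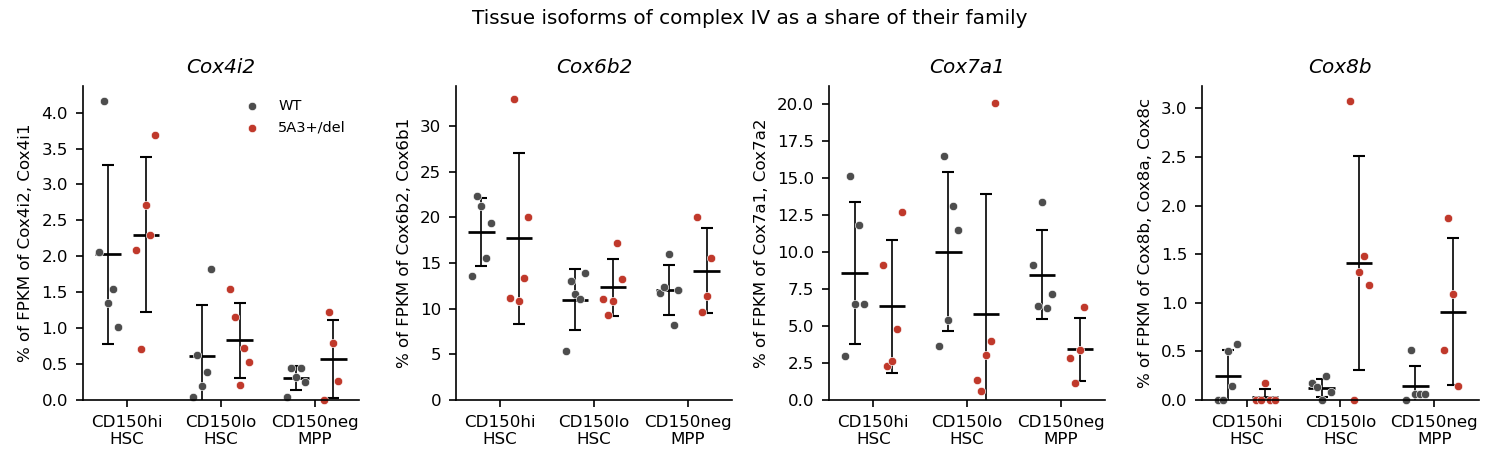
Share (percent, vertical axis) of Cox4i2, Cox6b2, Cox7a1 and Cox8b in the summed FPKM of their own subunit family, for each of the 29 libraries by population and genotype, with group mean and bars of 1 SD. Cox4i2 is highest in CD150hi HSC of both genotypes, with means of 2.03% and 2.3%, and Cox8b is highest in 5A3+/del CD150lo HSC at 1.41%.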

How the data were processed

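RNA of the sorted populations was amplified, sequenced with paired ends and mapped by the authors to mm9, and per the labels Bowtie 0.12.2 and HTSeq were used. The authors deposited 1 table of FPKM. Its counting step, strand setting and annotation are not given in the sources used here, and the study itself used exon coverage, which differs from FPKM. Exonic overlaps, such as Atp5f1 with Wdr77 and Atp5d with Dos, therefore cannot be resolved.

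Genes with at least 1 FPKM in at least 4 libraries were kept (15409 of 30025), transformed as log2(FPKM + 1) and quantile normalized over 29 libraries. limma 3.58.1 in R 4.3.3 was fitted to 6 group means from the labels, two-sided, with Benjamini-Hochberg adjustment over all genes and a threshold of 0.05. The log scale understates changes of low genes. Exact permutation tests were two-sided, over mice. The limma p-values of the main fit rest on a spread pooled over the 6 groups. That fit treats libraries of the same mouse as independent. The permutation tests use only the mice of the 2 groups compared. Fragments were recovered from the steps of FPKM times exon length in the GENCODE annotation of mm9 (29279 of 30025 identifiers matched, 98.4% to 98.91% of low values whole within 0.05 of a fragment). The depth limits genes near the floor of 3 fragments, and intervals are 95% for counting error. Near-identical copies were searched with minimap2 2.31 at 95% identity over at least 50% of the cDNA. Python 3.11.15, pandas 2.3.3 and scipy 1.17.1 were used.

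The members, lists and the rule for named genes were chosen with earlier results of these data known. Per genotype comparison, the members past the threshold and the 5 with the largest moderated statistic were named, per population comparison up to 8 past it and in any case the 3 largest, and in addition the complex IV isoforms, the c subunit genes, Cyc1, Cycs and the 3 highest and 3 lowest levels. Other genes of the pathway were named where they passed.

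A mouse code in the labels gives the pairing across populations. Deviations from group means of the same mouse correlated with a median of 0.079 (-0.042 to 0.235, 28 pairs), and those of different mice with -0.025. Replicate numbers shared between genotypes are numbers only. Alternatives were other pseudocounts, filters, normalizations, fits, a length correction, mouse blocks and leaving out each mouse with all its libraries. In simulated data for the CD150hi HSC comparison, 200 genes were shifted by 1 log2 unit, and 134 of them (67%) were recovered, with 7 false calls. The member differences in that comparison were smaller than this shift, so the share recovered does not carry over to them.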

Additional observations from a re-analysis of the deposited data

Results flagged for a closer look

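Of 168 sets of group values examined, 15 held a library whose gap to the nearest other exceeded Dixon's 95% limit, where chance would give 1 in 20 groups. In normalized FPKM, the 5A3+/del CD150hi HSC library 1 was low in Atp5b (90.2, others 122 to 135) and high in Cox8a (240, others 123 to 134) and Uqcrq (12.4, others 8.82 to 9.72), and its mean log2 level of complex V was 5.23 (others 5.39 to 5.451). The 5A3+/del CD150neg MPP library 1 was low in Atp5f1 (11.5, others 19.3 to 21.0) and high in Cox7b (53.1, others 44.8 to 46.1), library 2 of that group was low in Atp5j (22, others 28.0 to 28.3), and library 4 was high in Uqcrfs1 (31.1, others 20.9 to 22.2). The 5A3+/del CD150lo HSC library 1 was low in Cox7b (40.3, others 47.0 to 50.1).

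Among WT libraries, Cox4i1 was high in CD150hi HSC library 1 (237, others 193 to 205). In CD150neg MPP, library 1 was low in Atp5j (22.5, others 29.8 to 31.3) and high in Cox6a1 (99.3, others 69.3 to 76.9), library 2 was high in Cox8b (1.02, others 0.0245 to 0.137), and library 3, from the mouse with high Xist, was high in Cox6b2 (17.0, others 7.39 to 9.36) and Cox7a1 (8.36, others 3.1 to 3.73). The cause of these values was not tested.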

How the results depend on the processing

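Direction under the alternatives was checked for members in the comparisons where a call or the largest statistics named them, and none turned. Other differences given above, such as those of Cyc1 and Cycs between genotypes, were not checked in this way. In contrast, 6 medians near 0 changed sign. These were the genotype median of CD150neg MPP (-0.003, against 0.035 with median scaling, 0.019 without normalization, 0.008 with the shared-number block or without WT replicate 5 and 0.005 for core subunits), WT CD150lo minus CD150hi HSC (0.002, against -0.011 with mouse block and length correction and -0.037, -0.052, -0.034 and -0.007 without WT replicates 1 to 4), the 5A3+/del steps of CD150lo minus CD150hi HSC (-0.012, against 0.003 and 0.01 without replicates 1 and 3 and 0.014 for core subunits), CD150neg MPP minus CD150lo HSC (0.026, against -0.016 without replicate 4) and CD150neg MPP minus CD150hi HSC (0.016, against -0.019 with mouse block and length correction and -0.006 without replicate 4), and the interaction of CD150hi minus CD150lo HSC (0.042, against -0.02 without 5A3+/del replicate 1). Over summary values 376 moved by less than the spread between replicates or kept their count within 1.5 times, and 48 moved by more, and over single genes 521 stayed, 52 lost and 8 gained the threshold. The number of members past 0.05 between genotypes in CD150hi HSC, reported as 1, was 0 with a pseudocount of 0.1, with median scaling, without normalization, with only the groups compared, with the length correction and with the replicate block of shared numbers, and 2 with a filter of FPKM at least 5 (Atp5e and Uqcrq) and with limma's trend (Atp5e and Cox4i1). Leaving out 1 replicate gave 0 to 1, and 0 to 1 in CD150lo HSC, where 0 is reported and the 1 is again Cox8b. For WT CD150lo minus CD150hi HSC the reported 1 became 0 with the pseudocount of 0.1, with no filter, with the filter of 5, with only the groups compared, with core subunits alone and with the mouse as a replicate block, with or without the length correction (0 to 1 with 1 replicate left out), and the median of 0.002 was 0.066 with median scaling. For WT CD150neg MPP minus CD150hi HSC the reported 6 became 2 with only the groups compared and 2 to 6 with 1 replicate left out. Over all genes these fits called 1022 and 1030 to 1302, against 1548 in the main fit. In 5A3+/del the 1 member of CD150lo minus CD150hi HSC, Cox8b, whose test is not used, became 0 with the filter of 5, only the groups compared or core subunits alone (0 to 2 with 1 replicate left out), and the 1 member of CD150neg MPP minus CD150hi HSC became 0 with these and with no filter (0 to 1). The median interaction of CD150hi HSC minus CD150neg MPP, -0.18, was -0.094 with no filter, -0.096 with the filter of 5 and -0.225 to -0.069 with 1 replicate left out. The causes were not tested.

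Over all genes, the 24 calls between genotypes in CD150hi HSC were 81 with the filter of 5, 100 with the trend, 75 with no filter and 0 with only the groups compared or the shared-number block, and the 5 in CD150lo HSC were 74 without WT replicate 5. The 29 calls of WT CD150neg MPP minus CD150lo HSC were 1 with the mouse block. Beside those given in the report, the mouse block changed no call of a named member.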
